A study of Xenopus tropicalis with 4 samples.

Results

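Kinesins, tubulins, cytoplasmic dynein and dynactin subunits, stathmins and end-binding (EB) proteins were followed in whole adult frogs of both sexes. The genes were chosen by their symbols, as every gene of the expression table whose symbol begins with kif and a digit or c, tuba, tubb, tubg, dync1, dctn, stmn or mapre. This gave 72 genes of 15410 in the table, under 70 symbols, because kif14 and tuba3c each name 2 genes. They were 35 genes grouped as kinesins, 10 alpha tubulins, 7 beta tubulins, 5 genes of the gamma tubulin complex, 5 dynein subunits, 5 dynactin subunits, 3 stathmins and 2 EB proteins. One of those grouped as kinesins, kif1bp, encodes a protein that binds kinesins and is no motor itself. By known role, 12 genes were listed as mitotic, 10 as neuronal and 9 as ciliary, and the others were kept by family. The genes had 376 polyadenylation sites that count towards them, and 61 of the 72 had more than 1 site.

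Libraries came from 2 female and 2 male adult Xenopus tropicalis, a diploid clawed frog, with 1 frog per library and the whole body homogenised. The labels give no strain, genotype, treatment or further age, and the study, by its title, asked how polyadenylation site usage differs between the sexes. WTTS-seq, short for whole transcriptome termini site sequencing, samples polyadenylated RNA at its 3' end, so a transcript gives a read at its end whatever its length, and levels of different genes are set side by side without a length correction. A whole-body library mixes every organ, so fewer cells of a type and less RNA per cell cannot be told apart here.

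Microtubules are hollow polymers of alpha and beta tubulin that grow from the gamma tubulin complex. Kinesins walk along them, mostly towards the growing end, while cytoplasmic dynein with its cofactor dynactin walks the other way. Stathmins bind free tubulin, and EB proteins track growing ends. Different members serve the spindle of dividing cells, transport along axons, and the building and beating of cilia, and vertebrate genomes hold several tubulin genes that differ in where they are used. In frogs, the egg stores tubulin and spindle proteins for the rapid cleavage divisions of the embryo.

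Females 1 and 2 gave 2380500 and 1778737 reads, and males 1 and 2 gave 2779715 and 1531471. Reads of the 72 genes made up 0.807% and 0.736% of the female libraries and 0.196% and 0.235% of the male ones. Whole-body markers of 3 cell types moved with sex in the same libraries. All 17 tested egg markers were higher in females, and their summed level was 5924 and 5936 CPM (reads per 1000000 of the TMM-scaled library) in females against 19.9 and 13.2 in males, with 12 of the 18 listed genes at 0 reads in both males. Egg markers at 0 in both males could enter the test only through the females' reads. All 8 tested neuron markers were higher in males, with a summed level of 62.0 and 12.3 CPM in females and 1341 and 987 in males. Of 14 muscle markers 13 were higher in males. Multiciliated cell markers (4 tested, 1 higher in males) summed to 147 and 47.3 CPM in females and 131 and 75.6 in males, and foxj1.2, a regulator of motile cilia, and tekt2, a tektin of axonemes, had 0 reads in both females, while ccno, a cyclin-like regulator of multiciliated cells, had 0 in both males. A list drawn up for sperm and testis gave 5 of 9 genes higher in females and 2 in males. Its members adad2, tdrd5 and tdrd9 had 0 reads in both males, so the list did not mark males here. The marker calls and levels are with TMM, and calls with the somatic scaling described below are not given here. The part of these cell types in the results below was not tested.

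Of the 72 genes, 55 had enough reads to be tested, and 25 of these differed between the sexes (edgeR quasi-likelihood test, Benjamini-Hochberg adjustment over all 10257 genes tested, threshold 0.05). Over all genes, 36.0% differed. Females were higher in 18 of the 55, against 19.1% of all genes, and males in 7, against 16.8% of all genes. In 45 of the 55 the 2 female values did not overlap the 2 male ones, which held for 74.5% of all genes. The median log2 fold change (male over female) of the 55 was -1.10, beside -0.33 for all genes tested. The share higher in females was above that of all genes and the share higher in males below it, and nothing particular to the set is read from that, since its roles were grouped with results known. With 2 frogs against 2, an exact permutation test of a single gene cannot go below p = 0.333, so each call rests on the spread that edgeR shares across genes.

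**Figure D1:**
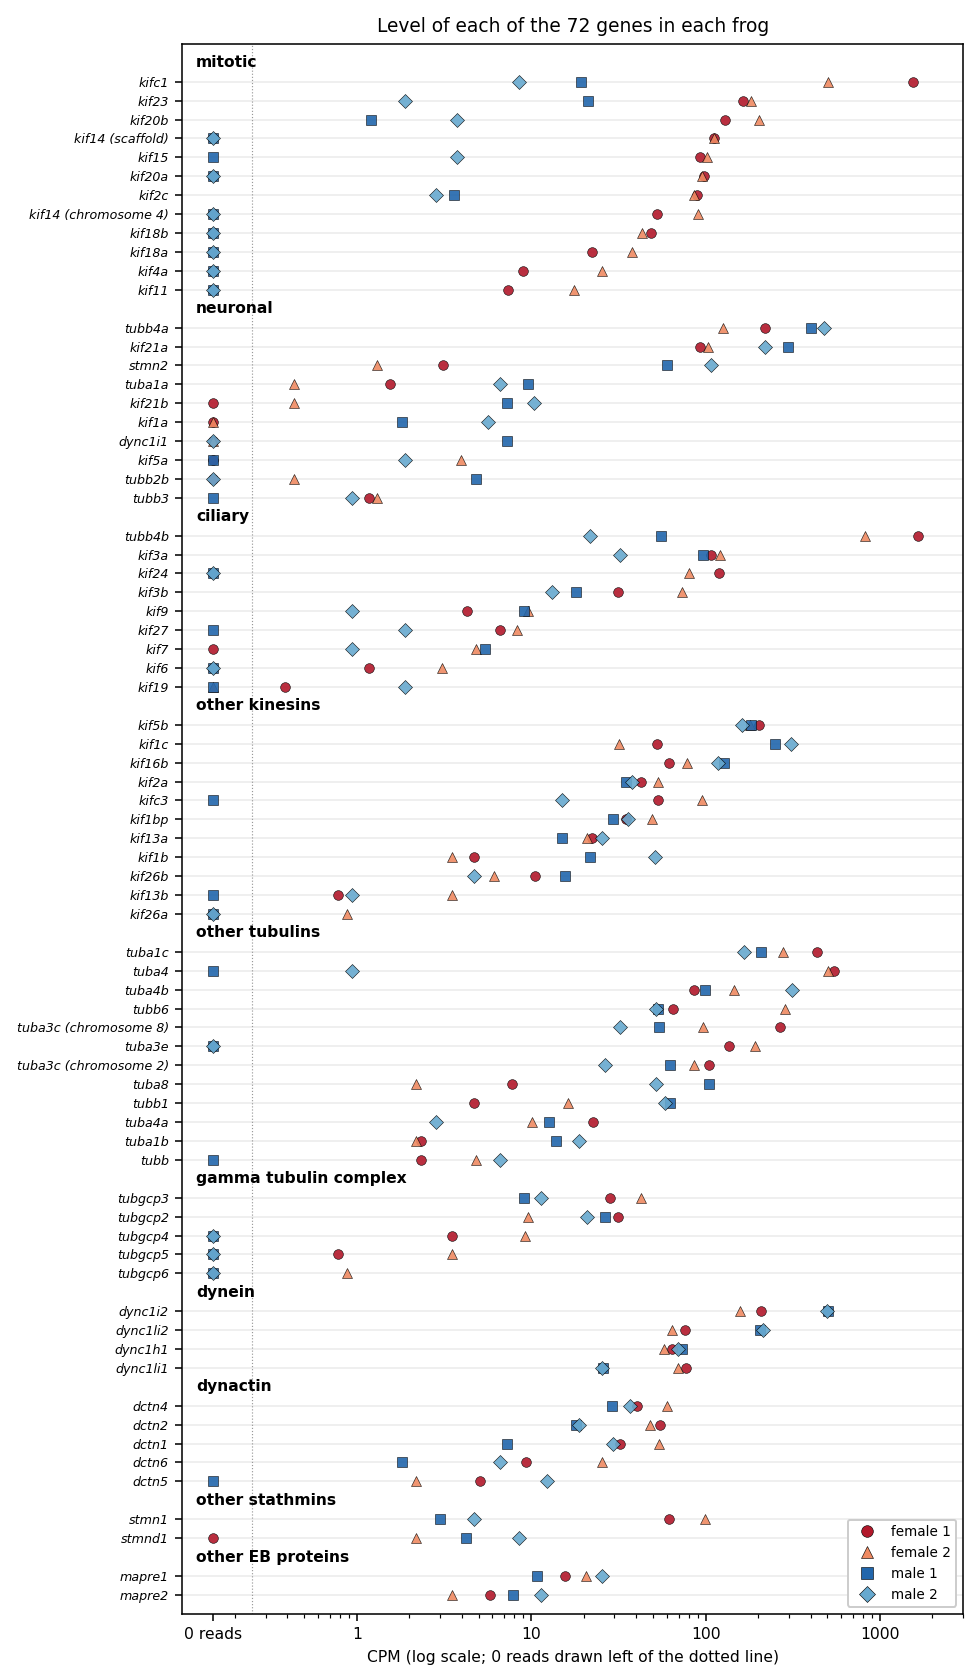
Level of each of the 72 genes in each frog, in CPM on a log scale, grouped by role, with 0 reads drawn to the left of the dotted line and overlying symbols hiding one another. All 12 mitotic genes have both female symbols to the right of both male symbols, and 7 of them have both males at 0 reads.

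The mitotic members were higher in females without exception. All 12 were tested and all 12 passed, beside 19.1% of all genes higher in females, and 7 of the 12 had 0 reads in both males. Their summed level was 2372 and 1498 CPM in the females against 45.2 and 20.8 in the males. The median log2 fold was -7.79 as fitted, and -5.62 with the 7 genes at 0 set to their bounds. Most of the 12 entered the test through the females' reads alone, so the count describes them and adds no support of its own. The egg markers given above had the same direction, at 5924 and 5936 CPM in females against 19.9 and 13.2 in males.

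The most abundant was kifc1, the minus-end-directed kinesin-14 that bundles spindle microtubules (chromosome 8, minus strand, with its leading site at 51138637). It had 1548 and 505 CPM in the females against 19.3 and 8.51 in the males. Both females were far above both males, and female 1 was well above female 2. The log2 fold was -6.18 ± 0.94 (SE, adjusted p = 0.00757) and lay between -5.13 without female 1 and -6.93 without male 1.

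Motors of the spindle midzone and of cytokinesis followed. kif23, which encodes the kinesin of centralspindlin (chromosome 3, site at 116125655), had 163 and 183 CPM in the females against 21.1 and 1.89 in the males. The females were close to each other and the males were not, and the log2 fold of -3.85 ± 0.93 (adjusted p = 0.0199) was -6.49 without male 1 and -3.13 without male 2. kif20a, which brings the Aurora B complex to the midzone, had 98.2 and 95.0 CPM in the females with no read in either male, at least 87.6-fold higher in females (adjusted p = 0.00658). Its relative kif20b had 129 and 202 CPM in the females against 1.21 and 3.78 in the males (log2 fold -6.11 ± 0.79, adjusted p = 0.00671). kif14, a kinesin of the cleavage furrow, stood in the table as 2 genes. The gene on an unplaced scaffold had 112 and 111 CPM in the females, the gene on chromosome 4 had 52.6 and 90.2, and neither had a read in a male. They were at least 101-fold and 63.7-fold higher in females (adjusted p = 0.00658 and 0.00723), and reads that fit both copies cannot be assigned with certainty.

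Motors that build the spindle or shorten microtubule ends were higher in females too. kif2c, the microtubule depolymerase of centromeres, had 89.3 and 85.4 CPM in the females against 3.62 and 2.84 in the males (log2 fold -4.71 ± 0.68, adjusted p = 0.00726). kif15, which helps to keep the spindle bipolar, had 92.4 and 102 CPM in the females, 0 reads in male 1 and 3.78 CPM in male 2 (log2 fold -5.85 ± 1.10, adjusted p = 0.0112). Without male 2 the males had 0 reads of kif15, so the fitted fold of -10.75 is no measured size. The chromosome-aligning motor kif18a had 22.2 and 37.7 CPM in the females and its relative kif18b 48.7 and 43.3, with 0 reads of either in the males, at least 26.7-fold and 41.8-fold higher in females (adjusted p = 0.0108 and 0.00769).

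kif11, the motor that pushes spindle poles apart, and the chromosome-arm motor kif4a were the lowest of the group. kif11 (chromosome 7, site at 17322130) had 7.41 and 17.5 CPM in the females from 19 and 40 reads, and 0 reads in both males. It was at least 11.0-fold higher in females (adjusted p = 0.0208), and the call ended without female 1 (adjusted p = 0.0832) or female 2 (adjusted p = 0.218). kif4a (chromosome 8, site at 23993381) had 8.97 and 25.4 CPM in the females and no read in the males, at least 15.1-fold higher (adjusted p = 0.0184), and its call ended without female 2 (adjusted p = 0.178). The other 10 mitotic genes kept their call when each library in turn was left out.

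Only 3 of the 10 neuronal members could be tested, all 3 with higher values in males, and 1 passed. Among all genes 36.0% passed, and 16.8% were higher in males. Over all 10 genes the summed level was 318 and 237 CPM in the females against 791 and 826 in the males, and the median log2 fold of the 3 was 1.40, or -2.26 with the somatic scaling described below. stmn2, the stathmin of growing axons (chromosome 6, site at 108583895), had 3.12 and 1.31 CPM in the females against 60.3 and 107 in the males. Both males were far above both females, with a log2 fold of 5.18 ± 0.79 (adjusted p = 0.00757). The direction held with that scaling, where the fold was 1.56 and the call ended (adjusted p = 0.147). The 8 tested neuron markers were higher in the same 2 males.

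tubb4a and kif21a were the abundant neuronal members. tubb4a, a beta tubulin prominent in mammalian brain, had 219 and 126 CPM in the females against 402 and 475 in the males, a log2 fold of 1.34 ± 0.58 that did not pass (adjusted p = 0.103). kif21a, a kinesin-4 that restrains microtubule growth, had 93.2 and 103 CPM in the females against 299 and 219 in the males (log2 fold 1.40 ± 0.53, adjusted p = 0.0717). In both genes the males lay above the females without overlap, and both differences turned negative with the somatic scaling (log2 -2.32 and -2.26, adjusted p = 0.00616 and 0.00491).

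The classical neuronal members were near the limit of detection in whole frogs. tubb3, the neuron-specific beta tubulin of mammals, had 3 reads in each female, 0 in male 1 and 1 in male 2. tubb2b had 0 and 1 read in the females against 8 and 0 in the males. kif1a, the motor of synaptic vesicle precursors, had 0 reads in both females and 3 and 6 in the males, at least 5.36-fold higher in males. kif5a, a neuronal kinesin-1 heavy chain, had 0 and 9 reads in the females against 0 and 2 in the males, and 4 of the 9 lay in an intron on the opposite strand. kif21b had 0 and 1 read in the females against 12 and 11 in the males, a ratio of 41.1 (95% counting interval 6.67 to 1692). tuba1a had 4 and 1 read in the females against 16 and 7 in the males, and dync1i1 had 12 reads, all in male 1. These 7 genes had too few reads for the test. With a filter of 1 CPM in 2 libraries 5 of them could be tested, and kif21b passed (adjusted p = 0.045), higher in males, which it did not with no filter (0.0522).

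Among the 9 ciliary members, 6 were tested and 2 passed, both higher in females. Over all genes 36.0% passed, and 19.1% were higher in females. tubb4b, a beta tubulin of axonemes that many other cells use too, was the most abundant of the 72 genes in females (unplaced scaffold, site at 68554). It had 1648 and 818 CPM in the females against 55.5 and 21.7 in the males. Both females were far above both males, and female 1 was well above female 2, with a log2 fold of -4.99 ± 0.84 (adjusted p = 0.00903). kif24, which in mammalian cells holds back cilium assembly at the mother centriole (chromosome 1, site at 194547300), had 120 and 80.1 CPM in the females with no read in either male, at least 91.5-fold higher in females (adjusted p = 0.0066).

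The motors that carry cargo into cilia did not pass. kif3a, a heterotrimeric kinesin-2 subunit, had 107 and 120 CPM in the females against 96.5 and 32.1 in the males (log2 fold -0.81 ± 0.64, adjusted p = 0.337). Its partner kif3b had 31.6 and 73.6 CPM in the females against 18.1 and 13.2 in the males (-1.73 ± 0.69, adjusted p = 0.081, and 0.0234 with library size alone). kif27, a relative of the Hedgehog pathway kinesin kif7, had 6.63 and 8.32 CPM in the females, 0 reads in male 1 and 2 in male 2 (-3.13 ± 1.30, adjusted p = 0.0923). Its fold was -1.96 without male 1. Without male 2 the males had 0 reads of kif27, so the fitted fold of -7.05 is no measured size. kif9, a motor of motile cilia, was at 4.29 and 9.63 CPM in the females against 9.05 and 0.945 in the males, so the sexes overlapped (-0.40 ± 1.08, adjusted p = 0.791), and the fold was 0.64 with reads of the opposite strand counted. kif19, kif6 and kif7 had too few reads, with 3 reads of kif19, 10 of kif6 and 21 of kif7 over all libraries. The median log2 fold of the 6 tested ciliary genes was -2.43. With the somatic scaling, which called 7832 of all 10257 genes, edgeR called all 6, higher in females. The multiciliated markers did not show that direction, at 147 and 47.3 CPM in females and 131 and 75.6 in males.

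The alpha tubulins included the clearest pair. tuba4 and tuba3e lay close together on chromosome 3 on opposite strands, with their most used sites 13.4 kb apart (75099216 and 75112582). tuba4 had 548 and 505 CPM in the females, from 1406 and 1154 reads, and 0 and 1 read in the males, a ratio of 1434 (95% counting interval 257 to 56650, adjusted p = 0.00634). tuba3e had 137 and 193 CPM in the females with no read in either male, at least 148-fold higher in females (adjusted p = 0.00634). No male had more than a single read of either gene, and both females lay far above both males in each.

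tuba8, an alpha tubulin first described in heart, skeletal muscle and testis of mammals, went the other way. It had 7.80 and 2.19 CPM in the females against 105 and 52.0 in the males (log2 fold 3.95 ± 0.83, adjusted p = 0.0142), and with the somatic scaling 0.31 (adjusted p = 0.777). Muscle markers were higher in the same males, in 13 of 14 genes. Most of the muscle marker symbols are also on the list that sets the somatic scaling, so the marker direction and the rescaled fold are not independent. tuba1b, at 2.34 and 2.19 CPM in the females against 13.9 and 18.9 in the males, passed narrowly (2.81 ± 0.87, adjusted p = 0.0386) and lost its call when any 1 library was left out (adjusted p from 0.071 to 0.256), and it turned to -0.80 with the somatic scaling. The tuba3c gene of chromosome 8 had 266 and 96.8 CPM in the females against 54.3 and 32.1 in the males (-2.06 ± 0.67, adjusted p = 0.0461). Its call ended without female 1 (adjusted p = 0.332, log2 fold -1.14), without male 1 (0.055) or without male 2 (0.106), and with RLE size factors (0.0514) or without intronic sites (0.0718).

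tuba1c, the alpha tubulin gene of highest mean level over the 4 frogs, did not pass at 433 and 278 CPM in the females against 207 and 165 in the males (log2 fold -0.93 ± 0.56, adjusted p = 0.218). tuba4b had 85.4 and 145 CPM in the females against 98.9 and 315 in the males, overlapping between the sexes, with male 2 far above the other 3 frogs (log2 fold 0.84 ± 0.68, adjusted p = 0.353). tuba4a and the tuba3c gene of chromosome 2 did not pass either (adjusted p = 0.415 and 0.181). With the somatic scaling edgeR called tuba1c, tuba4b, tuba4a and this tuba3c gene, each higher in females (adjusted p from 0.000652 to 0.00712). Among the beta tubulins, tubb1, the platelet beta tubulin of mammals, had 4.68 and 16.2 CPM in the females against 62.7 and 58.6 in the males (2.54 ± 0.75, adjusted p = 0.0349). Its call ended without female 1 (adjusted p = 0.161), and it turned to -1.11 with the somatic scaling. tubb6 had 64.7 CPM in female 1, 286 in female 2, and 53.7 and 52.0 in the males (-1.73 ± 0.75, adjusted p = 0.102). With no library left out, tubb6 passed with library size alone, with the somatic scaling, with no filter and with a replicate block. Its log2 fold was -2.42 without female 1 and -0.42 without female 2. tubb had 24 reads in all.

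Make-up within a family needs no scaling between libraries. Mitotic kinesins held 73.6% and 61.7% of kinesin reads in the females against 3.91% and 1.94% in the males. With kifc1 left out of both sums they still held 49.2% and 51.6% in the females against 2.28% and 1.16% in the males. Neuronal kinesins held 2.89% and 4.42% in the females against 26.6% and 22.2% in the males. Nearly all of these reads were of kif21a, whose level did not pass (adjusted p = 0.0717). It gave 239 of 239 and 235 of 245 reads in the females, and 495 of 510 and 232 of 251 in the males. Ciliary kinesins overlapped between the sexes, at 8.39% and 12.4% in the females against 11.2% and 4.77% in the males.

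tuba4 and tuba3e together gave 42.6% and 53.0% of alpha tubulin reads in the females. They gave 0 of 935 reads in male 1, which allows up to 0.394% (95% Clopper-Pearson), and 0.152% in male 2. tuba8 made up 0.485% and 0.166% of alpha tubulin reads in the females against 18.6% and 8.38% in the males. In the beta tubulins the main gene changed with sex, with tubb4b at 84.9% and 65.3% in the females against 9.59% and 3.54% in the males, and tubb4a at 11.3% and 10.1% in the females against 69.5% and 77.2% in the males. The level of tubb4a itself did not pass (adjusted p = 0.103), and its share rises where that of tubb4b falls. In each of these shares the 2 females and the 2 males did not overlap. Reads of near-identical tubulin genes could have been placed on the wrong copy.

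**Figure D2:**
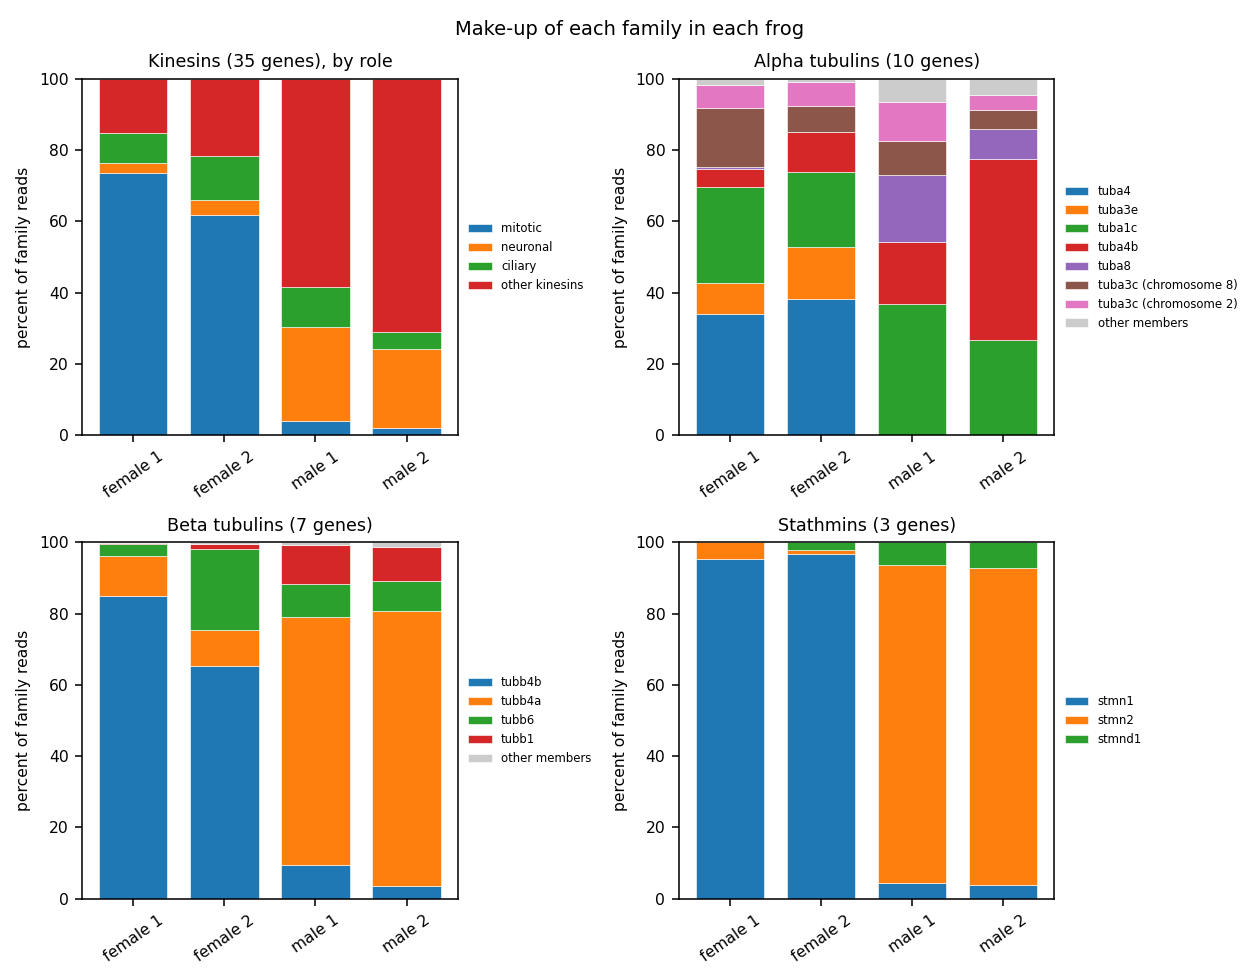
Share of each family's reads in each frog, in percent, for 35 kinesin genes by role, 10 alpha tubulins, 7 beta tubulins and 3 stathmins. Each bar is 1 library and sums to 100, and the females' main components (mitotic kinesins, tuba4, tubb4b and stmn1) hold under 10% of each male bar.

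The stathmins changed places between the sexes. stmn1, the stathmin of proliferating cells (chromosome 2, site at 50869751), had 61.6 and 99.0 CPM in the females against 3.02 and 4.73 in the males, a log2 fold of -4.38 ± 0.72 (adjusted p = 0.00866). It made up 95.2% and 96.6% of stathmin reads in the females against 4.46% and 3.94% in the males, while stmn2 made up 4.82% and 1.28% in the females against 89.3% and 89.0% in the males. The summed stathmin level overlapped, at 64.7 and 102 CPM in the females against 67.6 and 120 in the males. The remaining stathmin-domain gene, stmnd1, had 0 and 5 reads in the females against 7 and 9 in the males.

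Of the 11 other kinesins 9 were tested, and 2 passed, both higher in males. Over all genes 36.0% passed, and 16.8% were higher in males. kif1c, a kinesin-3 of vesicle transport, had 53.0 and 32.0 CPM in the females against 249 and 310 in the males (log2 fold 2.71 ± 0.58, adjusted p = 0.0148). The call ended without female 2 (adjusted p = 0.101), and the fold turned to -0.94 with the somatic scaling. kif1b, which carries mitochondria and synaptic vesicle precursors, had 4.68 and 3.50 CPM in the females against 21.7 and 51.1 in the males (3.12 ± 0.80, adjusted p = 0.0236). Its 2 most used sites lay within introns, and without intronic sites it had too few reads to test. Only the sites at 38668611 and 38669691 lay inside exons. The first had 2 and 4 reads in the females and 0 in both males, and the second had 1 read, in male 2. All other reads of kif1b were intronic, so its higher level in males rests on intronic sites. Its call ended without female 1, female 2 or male 2 (adjusted p = 0.0654, 0.114 and 0.0801), and the fold turned to -0.51 with the somatic scaling.

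kif5b, the widely expressed kinesin-1 heavy chain, was the most even of the abundant motors with TMM. It had 203 and 180 CPM in the females against 182 and 163 in the males, overlapping, with a log2 fold of -0.15 ± 0.51 (adjusted p = 0.832). With the somatic scaling the fold of kif5b was -3.81 (adjusted p = 0.000718), higher in females. kif16b, kif13a, kif2a, kif26b and kif1bp did not pass (adjusted p from 0.234 to 0.917), nor did the kinesin-14 kifc3 at 53.4 and 95.5 CPM in the females, 0 reads in male 1 and 15.1 CPM in male 2 (-3.39 ± 1.29, adjusted p = 0.0723). With no library left out, kifc3 passed with library size alone, with the somatic scaling, with no filter, with a replicate block and in DESeq2 (adjusted p = 0.017), higher in females. The somatic scaling in edgeR also gave calls for kif16b, kif13a, kif2a, kif26b and kif1bp, each higher in females (adjusted p from 0.000803 to 0.0132). Without male 2 the males had 0 reads of kifc3. kif13b and kif26a had 11 and 2 reads in all.

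The 4 tested dynein genes summed to 426 and 348 CPM in the females against 807 and 804 in the males. Of the 4, 1 passed, higher in males, beside 16.8% of all genes. The light intermediate chain gene dync1li2 (chromosome 4, site at 60530818) had 76.0 and 63.9 CPM in the females against 204 and 214 in the males, tight within each sex (log2 fold 1.58 ± 0.52, adjusted p = 0.0469). That call ended when any 1 library was left out (adjusted p from 0.0916 to 0.294), and the fold turned to -2.08 with the somatic scaling (adjusted p = 0.00691). Its counterpart dync1li1 had 77.6 and 69.2 CPM in the females against 25.9 and 25.5 in the males (-1.51 ± 0.55, adjusted p = 0.0646). dync1li1 passed with library size alone (adjusted p = 0.0166), with a replicate block (0.0339) and with the somatic scaling (0.000466). Of the 2 genes' reads, dync1li2 held 49.5% and 48.0% in the females against 88.7% and 89.3% in the males, a contrast that no scaling moves. The intermediate chain gene dync1i2 had 209 and 157 CPM in the females against 503 and 495 in the males (1.45 ± 0.56, adjusted p = 0.0749), and it turned to -2.21 with the somatic scaling (adjusted p = 0.00592). The heavy chain gene dync1h1 was close to even with TMM, at 63.9 and 57.8 CPM in the females against 73.6 and 70.0 in the males (0.24 ± 0.51, adjusted p = 0.733). It turned to -3.42 with the somatic scaling (adjusted p = 0.00108).

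None of the 5 dynactin genes passed with TMM and all 4 libraries in edgeR, where 1 had an unadjusted p under 0.05, or in DESeq2, where 0 had. With the somatic scaling edgeR called dctn1, dctn2, dctn4 and dctn6, each higher in females (adjusted p from 0.000494 to 0.00173), but not dctn5 (0.1). That scaling called 7832 of all 10257 genes. dctn1, which encodes the p150 subunit that binds microtubules, had 32.4 and 54.3 CPM in the females against 7.24 and 29.3 in the males (log2 fold -1.27 ± 0.80, adjusted p = 0.234). It was -2.67 and passed without male 2 (adjusted p = 0.0309), and was -0.58 without male 1. dctn2, which encodes dynamitin, had 54.6 and 47.7 CPM in the females against 18.1 and 18.9 in the males (-1.47 ± 0.59, adjusted p = 0.0852, and 0.025 with library size alone), which were tight within each sex and did not overlap. dctn4, the most abundant dynactin gene, had 40.5 and 60.0 CPM in the females against 29.0 and 36.9 in the males (adjusted p = 0.428). dctn6 had 9.36 and 25.4 CPM in the females against 1.81 and 6.62 in the males (adjusted p = 0.137), and dctn5 had 31 reads in all (adjusted p = 0.74).

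The gamma tubulin complex and the EB proteins were low. None of their 4 tested genes passed with TMM and sex as the only factor in edgeR, or in DESeq2. In each tool 1 of the 4, a gamma tubulin complex gene, had an unadjusted p under 0.05. All 4 passed in edgeR with the somatic scaling, higher in females (adjusted p from 0.000537 to 0.0238). That scaling called 7832 of all 10257 genes. tubgcp3, a core subunit of the complex, had 28.5 and 42.9 CPM in the females against 9.05 and 11.3 in the males (log2 fold -1.81 ± 0.68, adjusted p = 0.0689). It passed with library size alone and with a replicate block. tubgcp2 overlapped between the sexes (0.20 ± 0.76, adjusted p = 0.851). tubgcp4, tubgcp5 and tubgcp6 had 30, 10 and 2 reads in the females and 0 in the males, too few for the test. With a filter of 1 CPM in 2 libraries tubgcp4 passed, higher in females (adjusted p = 0.0464), as it did with no filter (0.0457), but with reads of the opposite strand counted its log2 fold was 0.09. mapre1 (EB1) had 15.6 and 20.6 CPM in the females against 10.9 and 25.5 in the males, overlapping (-0.01 ± 0.74, adjusted p = 0.995). mapre2 had 5.85 and 3.50 CPM in the females against 7.84 and 11.3 in the males (1.01 ± 0.85, adjusted p = 0.372).

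**Figure D3:**
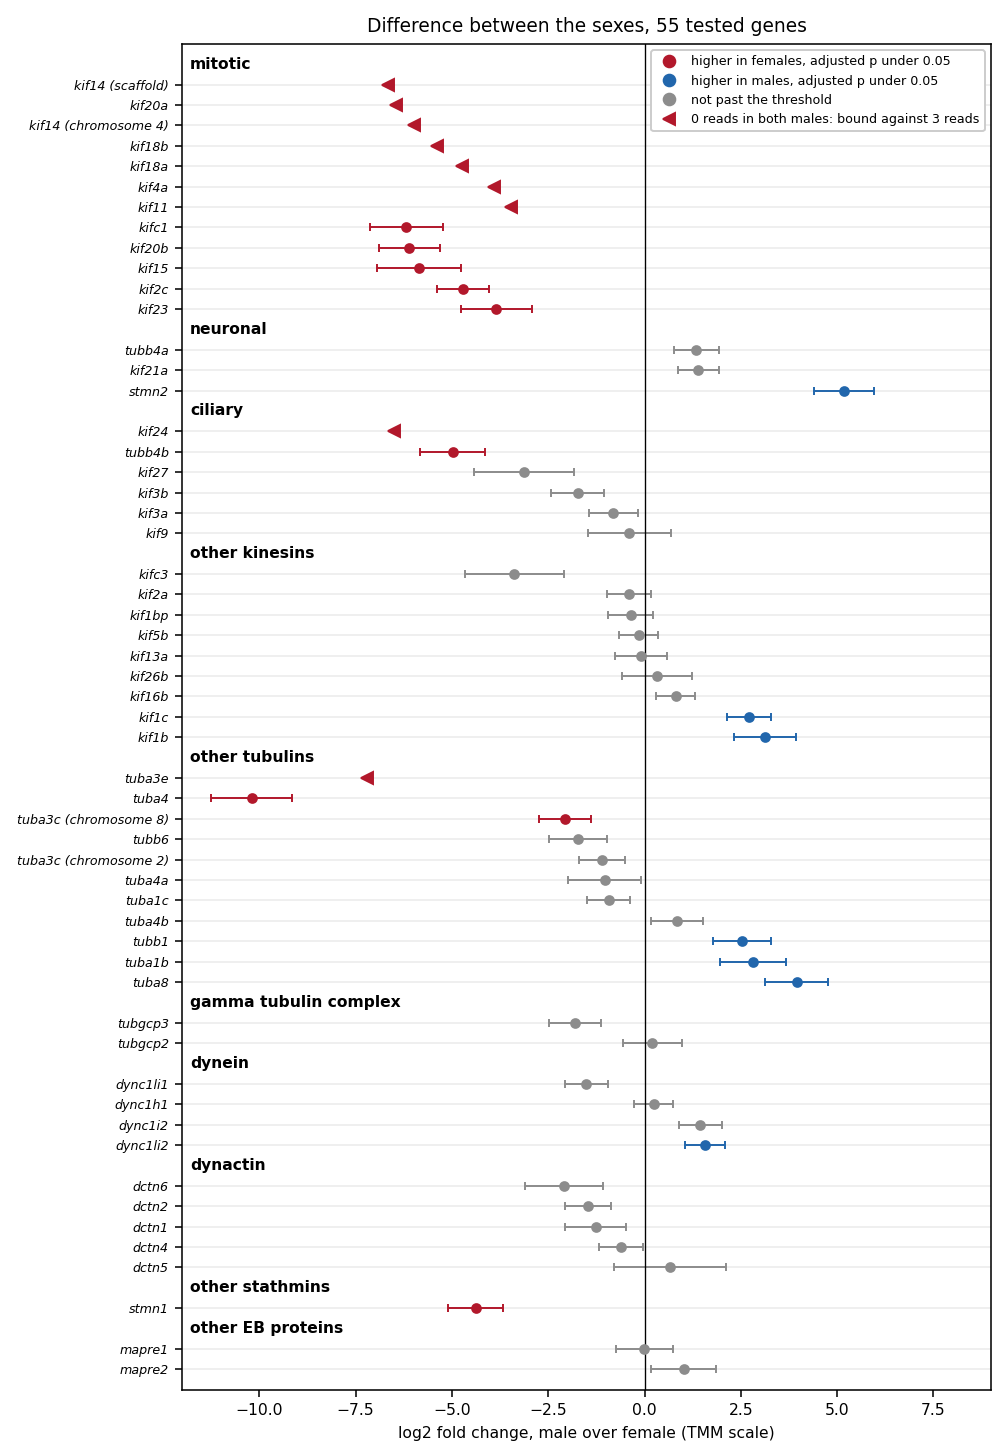
Log2 fold change, male over female, of the 55 tested genes by role, with bars of 1 SE and arrowheads at the bound for the 9 genes with 0 reads in both males. Mitotic genes lie between -3.46 and -6.66 and stmn2 at 5.18, and of the 7 genes higher in males only stmn2 (1.56) and tuba8 (0.31) stay above 0 with the somatic scaling, while kif1c, kif1b, tuba1b, tubb1 and dync1li2 turn negative.

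The level at which "no difference" is set decided the calls on the male side. TMM took the bulk of genes as equal, and the median of all genes was then -0.33. A list of muscle, liver, connective tissue, blood and pancreas genes had a median of 3.66 over 27 tested members, and setting that median to 0 moved the median of all genes to -3.98. With this somatic scaling edgeR called 48 of the 55 genes, all higher in females, and the other 7 included the 2 with a positive fold, neither under 0.05 unadjusted. Over all 10257 genes it called 7832, of which 0.804% were higher in males, so nothing particular to the 55 is read from that count. With library size alone the median of all genes was -1.23, and the split was 27 higher in females and 3 in males in place of 18 and 7. Over all 10257 genes 4345 then passed, of which 24.05% were higher in males. The 12 mitotic genes passed, higher in females, with each of these scalings.

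Use of alternative polyadenylation sites could be tested in 27 of the 72 genes, and 4 differed between the sexes (edgeR diffSpliceDGE, gene-level adjusted p under 0.05). Over all 3536 genes tested, 16.0% differed. The males had 0 reads at the tested sites of kif2c, kif24, tuba3e, kif20a and both kif14 genes, and 2 each for kif20b. No difference in use could show in the genes with 0 male reads, which stay in the 27. Such genes were not taken out of the 3536 either. Use was measured as a site's percentage of all reads at the gene's tested sites, and its place relative to the exons is the class the authors' table gives.

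In kif21a the site at 65594593 (chromosome 3, minus strand, overlapping an exon) took 72.7% and 58.8% of reads in the females against 100% and 98.4% in the males. The second site, inside an exon 51.0 kb further along the gene, took 27.3% and 41.2% in the females against 0% and 1.59% in the males (adjusted p = 0.00939). Of these 2 tested sites the males used almost only the first and the females both. Over all 24 sites of kif21a the first took 55.7% and 38.3% of reads in the females against 86.3% and 80.2% in the males.

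In dync1li1 a site downstream of the annotated gene (chromosome 6, 74007135) took 1.19% and 0% of reads in the females against 55.8% and 45.8% in the males, where it stood on 24 of 43 and 11 of 24 reads (adjusted p = 0.0101). The site at 74005674, which overlaps an exon, took 84.5% and 80.3% in the females against 44.2% and 41.7% in the males. In dync1li2 the upstream site (chromosome 4, 60532986, inside an exon) took 13.9% and 34.0% in the females against 0% and 1.33% in the males (adjusted p = 0.0143). So both light intermediate chain genes had relatively more downstream ends in males, while kif21a had relatively more upstream ends in them. The direction of such shifts over all genes is not given here.

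In dctn4 the most upstream of 3 tested sites (chromosome 3, 5770263) took 18.2% and 20.2% in the females and 0 of 30 and 0 of 38 reads in the males (adjusted p = 0.0458), and the last site took 54.5% and 44.5% in the females against 70.0% and 78.9% in the males. Between the sexes these shares of reads at tested sites did not overlap. Over all 10 sites of dctn4 the last site took 40.4% and 38.7% in the females, 43.8% in male 1 and 76.9% in male 2. Male 1 was then close to the females. The calls depended on single libraries in edgeR: 1 gene passed without female 1 (dync1li2), 0 without female 2 and 0 without male 1, where 5 and 4 genes had an unadjusted p under 0.05, and 4 passed without male 2.

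**Figure D4:**
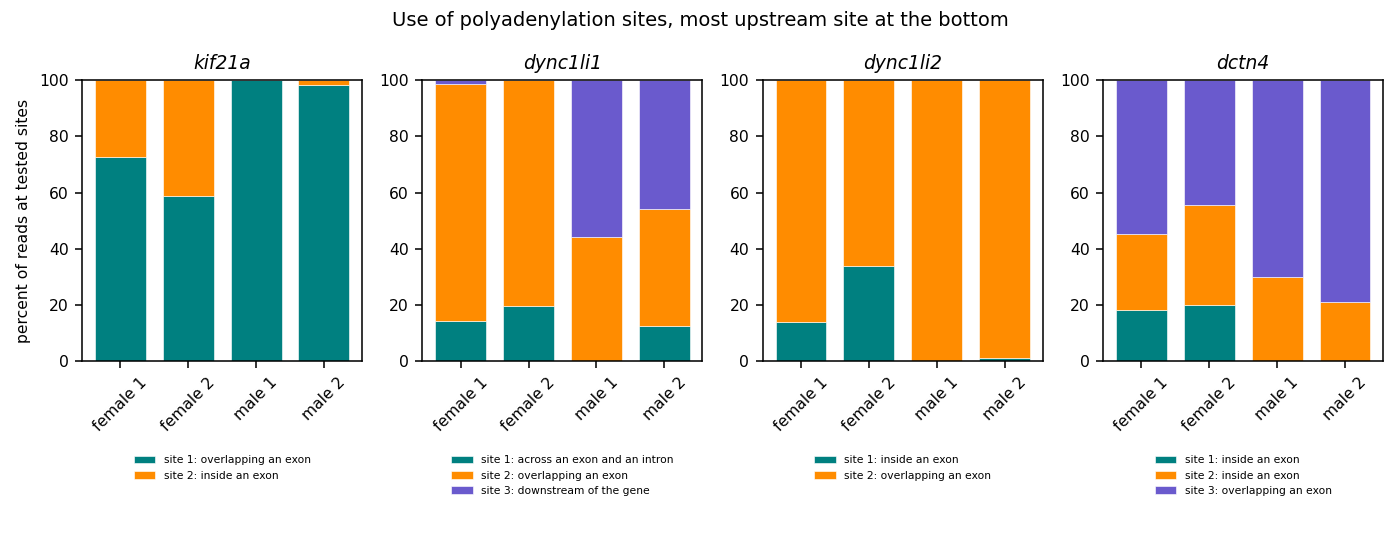
Percent of reads at each tested site in each frog for the 4 genes whose site use differed, with the most upstream site at the bottom of each bar. Of their tested sites the females split kif21a and dync1li2 between 2 where the males use nearly 1, and the downstream site of dync1li1 takes 55.8% and 45.8% in the males and at most 1.19% in a female.

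In position, 211 of the 376 sites lay inside exons, 51 overlapped exons, 39 lay downstream, 18 spanned an exon and an intron, and 57 lay within introns. Intronic sites took 0.812% and 1.18% of the 72 genes' reads in the females against 5.70% and 5.42% in the males. Exon-overlapping sites took 74.0% and 58.2% in the females against 39.9% and 43.4% in the males. Sites spanning an exon and an intron took 7.02% and 7.90% in the females against 25.76% and 25.14% in the males. The sexes overlapped at sites inside exons, with 14.45% and 28.99% in the females against 23.76% and 22.75% in the males. They also overlapped at downstream sites, with 3.73% and 3.74% in the females against 4.855% and 3.25% in the males. These shares also reflect which genes gave the reads in each sex.

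Genes that work with these families but do not carry their names were counted for comparison, beside the 19.1% of all genes higher in females and 16.8% higher in males. Females were higher in 26 of 31 tested spindle and kinetochore genes, and males in 0. Among them tacc3, a spindle microtubule stabiliser, had 221 and 483 CPM in the females against 3.02 and 5.67 in the males, and incenp, the scaffold of the Aurora B complex, had 714 and 741 in the females against 5.43 and 15.1 in the males. Of the spindle and kinetochore genes 8 had 0 reads in both males. Such genes could enter the test only through the females' reads, so the count describes the list and adds no support of its own. Of 11 neuronal microtubule-associated protein and axonal transport genes 5 were higher in males and 1 in females. mapt (tau) had 10.5 and 10.1 CPM in the females against 176 and 195 in the males, and map1b had 27.7 and 9.63 in the females against 514 and 411 in the males. All calls and levels of these related genes are with TMM. The somatic scaling lowers every fold, and their calls with it are not given here.

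Of 18 axonemal dynein and intraflagellar transport genes 4 passed, each higher in females, with wdr60 at 244 and 457 CPM in the females against 70.6 and 22.7 in the males. ift57 was there with 105 reads in the females and 1 in the males. Of 16 dynein and dynactin partners 6 were higher in females and 1 in males, and bicd2, a dynein adaptor, had 126 and 158 CPM in the females against 10.3 and 4.73 in the males. nde1, a dynein regulator of mitosis and nuclear movement, had 175 and 107 CPM in the females against 13.3 and 5.67 in the males. Females were higher in 4 of 17 tubulin folding and modification genes, and males in 1. agbl1, a tubulin deglutamylase, had 4.68 and 2.19 CPM in the females against 151 and 89.8 in the males, and ttll1, a tubulin polyglutamylase, had 60.8 and 49.0 in the females, 0 reads in male 1 and 3.78 CPM in male 2.

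The authors' deposited table tests single sites. It gives 37 sites of the 72 genes an FDR under 0.05, in 21 genes. Of these sites 35 carry a positive fold change and 2 a negative one, where positive was read as higher in females from the counts. The share and split over all sites are not given here, so nothing particular to these genes is read from them.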

How the data were processed

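The authors deposited raw read counts per polyadenylation site in 4 libraries, with a gene and a class code per site, per the file headers. The same deposited table holds p-values and a signed fold change from the authors' own comparison, which were used for 1 statement only. The submitters' processing notes name Bowtie2 2.2.3. Genome build, site grouping, filters and any removal of priming on A-rich stretches: not given in the sources used here. Positions are printed as deposited. Chromosome numbers were assigned by symbol from a RefSeq gene table (UCB_Xtro_10.0). The class codes were taken to follow Cuffcompare, which the table itself does not state. Labels name individual frogs, so the spread is between frogs. No molecular identifiers are mentioned, and intervals and bounds therefore cover counting error only.

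Counts were summed per gene identifier over sites with a class code other than x (opposite strand to an exon; 8 sites of these genes; 5 opposite-strand intronic sites with 54 reads stayed in) and tested for sex in R 4.3.3 with edgeR 4.0.16 (TMM, filterByExpr with minimum count 10 and minimum total 15, glmQLFit, glmQLFTest), adjusted over all genes at 0.05. SE is the absolute log2 fold over the square root of F. CPM is per 1000000 of the effective library. For a gene with 0 reads in a sex the fold is bounded with 3 reads over the 2 effective libraries summed, and for one with 1 to 3 reads it is a ratio with a 95% Clopper-Pearson interval. Site use was tested with diffSpliceDGE in genes with at least 2 tested sites. Scripts were tested on simulated data. DESeq2 1.42.0 and other scalings, filters, site sets, a replicate block and leaving out each library were tried as alternatives.

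The members, their role lists, the related gene lists and the tests were chosen with earlier results of these data known. Values are described in full for a set of genes given whatever the result, for the 2 genes of smallest adjusted p and the gene of highest CPM in each role or family, and for the 4 genes with a site use change. The rest are named to account for every member. kif17 and tubg1 were in that set, but no gene of the expression table was found under either symbol, so they were not analysed here.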

Additional observations from a re-analysis of the deposited data

Results flagged for a closer look

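Reads on the strand opposite to an exon were left out of the sums, and at 6 of the 72 genes they rose above the 3 reads that a count of 0 allows. At tubb4b the opposite-strand site at 68447 had 92 and 31 reads in males 1 and 2 and 0 in both females, beside 92 and 23 reads at the gene's main site in the males and 4219 and 1851 in the females. At tubgcp4 the site at 97093195 had 13 and 7 reads in males 1 and 2 and 1 in each female, whereas the gene itself had 0 reads in both males. At kif9 the site at 4418906 had 17 reads in male 1 and 1 in male 2, and with such sites included the log2 fold of kif9 turned from -0.40 to 0.64. The other 3 were low, with 7 reads at kif2a in female 1, 5 at kif26b in female 2 and 4 at kif18a in female 1. What these reads come from was not tested.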

How the results depend on the processing

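Of 55 tested genes 25 passed, 18 higher in females and 7 in males. With the somatic scaling these counts were 48, 48 and 0, and with library size alone 3 were higher in males. Over all 10257 genes 7832 passed with the somatic scaling and 4345 with library size alone. Library size alone added dctn2, dync1li1, kif27, kif3b, kifc3, tuba1c, tuba3c of chromosome 2, tubb6 and tubgcp3. It lost dync1li2, kif1b, tuba1b and tubb1. Leaving out 1 library gave 19 to 24 genes, 16 to 20 higher in females and 3 to 5 in males. The median log2 fold of the mitotic genes was -10.16, of the ciliary ones -6.00 and of the neuronal ones -2.26 with the somatic scaling. The neuronal median was 0.51 with library size alone (3 genes), 1.98 with a filter of 1 CPM in 2 libraries (8 genes), 2.88 with no filter (10 genes) and 1.43 to 2.97 without 1 library (3 to 5 genes). The mitotic and ciliary medians ranged from -8.64 to -6.97 and from -2.40 to -1.63 without 1 library. Because 7 of the 12 mitotic genes had 0 reads in both males, these mitotic medians and the -10.16 are as fitted and no measured size. Site use differed in 8 genes with the 1 CPM filter and in 0 to 4 without 1 library. dctn4 did not pass there without intronic sites (adjusted p = 0.0904).

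Below, the cause of each change of sign was not tested, except that the somatic scaling lowers every fold by construction. With it, log2 folds turned to -2.96 (dctn5), -3.42 (dync1h1), -2.21 (dync1i2), -2.08 (dync1li2), -2.85 (kif16b), -0.51 (kif1b), -0.94 (kif1c), -2.26 (kif21a), -3.32 (kif26b), -2.62 (mapre2), -0.80 (tuba1b), -2.82 (tuba4b), -1.11 (tubb1), -2.32 (tubb4a) and -3.45 (tubgcp2). With library size alone they turned to -0.10 (dctn5), -0.65 (dync1h1), -0.11 (kif16b), -0.56 (kif26b), -0.07 (tuba4b) and -0.60 (tubgcp2). Genes with no call also changed sign elsewhere. kif5b was 0.12 and mapre1 0.26 without intronic sites, mapre1 was 0.002 with DESeq2 and without intronic sites on the opposite strand, kif9 was 0.64 with opposite-strand sites, and tubgcp2 was -0.018 with no filter. Without 1 library, values ranged from -6.04 to 1.71 (dctn5), -0.84 to 0.80 (kif26b), -0.31 to 1.44 (tuba4b), -0.54 to 1.31 (tubgcp2), -0.62 to 0.22 (kif13a), -2.81 to 0.29 (kif9) and -0.83 to 0.48 (mapre1). The -6.04 of dctn5 is the fit without male 2, where male 1 had 0 reads, so its size is not measured.

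The labels' numbers 1 and 2 name frogs and state no pairing across the sexes. With only 2 numbers the correlation of deviations, 0.30, does not settle whether there was one. With a replicate block 4713 of all 10257 genes passed, against 3689 without it. Of the 72 genes 31 passed with it, 22 higher in females and 9 in males, 24 of them among the 25. The others were dync1i2, dync1li1, kif21a, kifc3, tubb4a, tubb6 and tubgcp3. tuba1b (adjusted p = 0.0583) lost its call, dctn5 turned to -0.18, and dctn4's site use gave adjusted p = 0.0714. Low reads kept 17 genes out of the test. With the 1 CPM filter 10 of them were tested and kif21b and tubgcp4 passed, and with no filter all 17 were tested and tubgcp4 passed. Of the genes tested before, kif3b, kifc3 and tubb6 also passed with no filter, and dync1li2 and tuba1b lost their calls.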
